A study of Mus musculus with 2 samples.

Results

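The genes described here are those of potassium channels, taken as every non-control probe whose gene symbol in the scanner files starts with Kcn. They were 87 of the 30198 genes on the array and were covered by 127 probes in 145 spots. The RNA came from mouse kidney collecting duct cells, which had been isolated on magnetic beads through DBA lectin. Wild-type (WT) animals were set against animals with the genotype Gata2flox/-::Pax8-rtTA::Tet-Cre (CKO), which carry 1 floxed and 1 null allele of the transcription factor Gata2. All were 8 weeks old, and doxycycline, which switches on Cre, is described for both groups over the last 4 weeks. Pax8-rtTA drives Cre along the renal tubule and not in the collecting duct alone, and the null allele is carried by every cell of the CKO mice, so deletion in the tubule and the lack of 1 allele in all cells cannot be told apart. The WT label names no transgene, and the sex was mixed in both groups. Each genotype had 1 one-colour array. The labels count 3 mice in each group and speak of a mixture, without stating how their RNA was combined.

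Potassium channels let potassium leave cells down its gradient and so set the membrane voltage. In principal cells of the collecting duct, inward rectifier channels of the Kcnj family secrete potassium into the urine on the apical side and recycle the potassium brought in by the sodium pump on the basolateral side. Large-conductance channels built on Kcnma1 add secretion when flow is high. Kcnk genes encode 2-pore channels that carry background currents, Kcnq genes voltage-gated channels that pair with the small Kcne subunits, and the Kcna to Kcnd and Kcnh genes further voltage-gated channels.

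Signals below are percentages of the 75th percentile of the same array, which was 314 scanner units for WT and 250.03 for CKO. A difference is the log2 of the CKO percentage minus the log2 of the WT percentage. The error given with a difference is that of the scanner software for the spots, which covers neither mice nor labelling. With 1 array per genotype there was no replicate check and no test, and genes were counted by a fold of 2 or of 1.5. Where a probe was well above background, the scanner software's detection call, in 1 genotype only, its difference is a bound, written as "at least". The lowest signal so called was 3.83% in WT and 4.62% in CKO, and no spot was saturated. Signals of different probes are not comparable with each other. In these cells Gata2 itself was at 77.3% and 80.4% of the WT level by its 2 probes, whose place relative to the deleted exons the labels do not give. The 8 markers of principal cells were all well above background on both arrays, among them the water channel Aqp2 at 13315% and 11233%. So were the 8 intercalated cell markers. The same held for the 7 proximal tubule, 5 thick ascending limb and 8 macrophage markers listed. Among these, Umod of the thick ascending limb read 2680% in WT and 3518% in CKO. Detection of markers thus does not check the purity of the cells.

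In the WT cells 33 of the 87 genes had a probe well above background, beside 61.5% of all genes on the array. By subfamily these were 6 of 14 Kcnj genes, 6 of 11 Kcnk genes, 2 of 5 genes of the large-conductance channel (Kcnma and Kcnmb), 2 of 5 Kcnq genes, 2 of 5 Kcne genes and 15 of 47 others. In the CKO cells 30 genes were detected, beside 59.9% of all genes. Of the 36 genes measured in either genotype, 27 were detected in both, 6 in WT only (4.71% of all measured genes) and 3 in CKO only (2.08%). Detection by every probe of a gene held for 26 genes in WT, beside 55.9% of all genes.

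**Figure D1:**
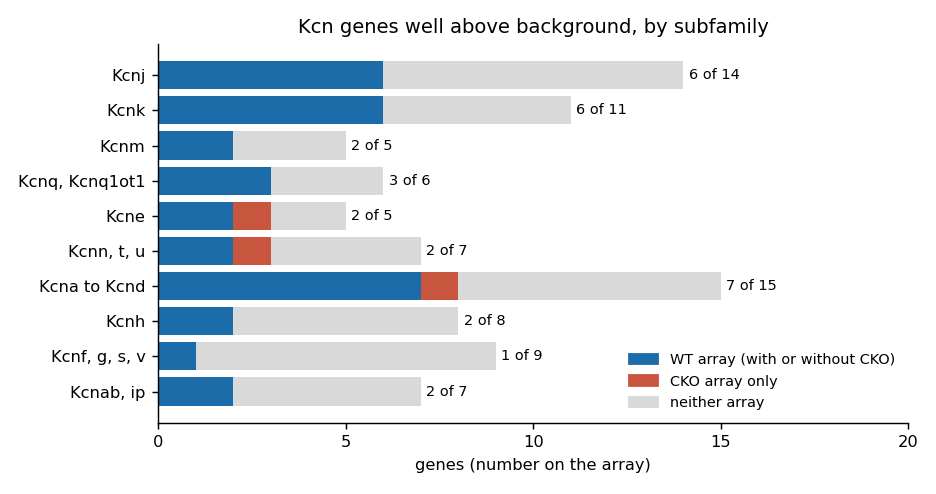
Number of Kcn genes on the array by subfamily (horizontal axis, genes), split into those with a probe well above background in WT (blue), in CKO only (red) and on neither (grey). The labels give the number in WT of the number present. The blue part reaches 6 of 14 in Kcnj and 6 of 11 in Kcnk, and 1 of 9 in the bar of Kcnf, Kcng, Kcns and Kcnv.

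The other 51 genes gave signals between 2.41 and 16.0 in WT and between 2.31 and 13.5 in CKO (here in scanner units), with medians of 2.87 and 2.76, beside medians of 2.67 and 2.53 for the negative controls. Kcnma1, the pore of the large-conductance channel, was among them, at 2.49 in WT and 2.31 in CKO by its only probe. So were the Kcnj genes Kcnj2, Kcnj3, Kcnj5, Kcnj6, Kcnj8, Kcnj11, Kcnj12 and Kcnj14, the Kcnk genes Kcnk3, Kcnk7, Kcnk10, Kcnk12 and Kcnk16, and Kcnq5, Kcne2 and Kcne4. The large-conductance subunits Kcnmb1 and Kcnmb3, the calcium-activated Kcnn4 and the sodium- or pH-gated Kcnt1, Kcnt2 and Kcnu1 were not well above background either. Of the voltage-gated genes this held for Kcna2, Kcna3, Kcna4, Kcna5, Kcnb2, Kcnc1, Kcnd1, Kcnh1, Kcnh2, Kcnh3, Kcnh6, Kcnh7 and Kcnh8. It held too for the modifying subunits Kcnf1, Kcng2, Kcng3, Kcng4, Kcns1, Kcns2, Kcnv1 and Kcnv2 and for the cytoplasmic partners Kcnab1, Kcnab3, Kcnip1, Kcnip2 and Kcnip3. Such a signal shows only that a transcript was not detectable by that probe, not that it was absent.

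A difference or a bound could be given for 35 of the 36 measured genes. Of these, 5 were at least 2-fold lower in the CKO cells, beside 2.86% of all 18793 genes with a difference, and 1 was at least 2-fold higher, beside 1.5%. At 1.5-fold there were 8 lower (6.42% of all genes) and 5 higher (6.85%). At 4-fold there were 3 lower, beside 0.745%, and 21 genes in all lay below 0, beside 42.4%. Among the lower genes at 1.5-fold were Kcnq3, Kcnk2, Kcnh5, Kcnk5, Kcnc2, Kcne3 and Kcnmb4, and among the higher ones Kcna6, Kcnk4, Kcne1l and Kcns3. The median of the 35 genes was −0.175, against 0.05 for all genes. Genes detected on 1 array only pass the detection filter through the array on which they are high. Over the 27 genes measured on both arrays, 4 were at least 2-fold lower (2.43% of all such genes) and 0 higher (1.17%), 4 and 3 were so at 1.5-fold (5.51% and 5.84%), and the median was −0.04, against 0.05 for all. With the spike-in control transcripts set equal, which lowers the median of all genes to −0.50, 9 genes were at least 2-fold lower (8.71% of all genes) and 0 higher (0.308%). The median of the Kcn genes lay 0.22 below that of all genes, as on the 75th percentile scale. This setting could barely change that gap, since it lowers every difference by the same amount. Normexp background correction adds an offset of 50 scanner units to both arrays, which draws the differences of dim genes toward 0. With it 3 were at least 2-fold lower (1.11%) and 0 higher (0.354%), and the Kcn median was 0.0171, against 0.07 for all genes.

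Most of these genes were dim. Of the 35, 25 had a geometric mean signal under 100 scanner units, and among all genes this dim the 2-fold lower share was 4.61% and the higher share 2.75%, against 3 and 1 of the Kcn genes. At 1.5-fold the shares were 10.5% and 12.4%, against 6 and 4. Of the 10 brighter Kcn genes 2 were at least 2-fold lower (1.81% of all brighter genes) and 0 were higher (0.749%). Below 0 lay 9 of them, Kcnj16, Kcnk1 and Kcnq1 by less than their spot error, beside 4918 of all 11746 brighter genes. At 1.5-fold 2 were lower (3.97%) and 1 higher (3.52%). These 10 were Kcnj1, Kcnj10, Kcnj16, Kcnk1, Kcnk6, Kcnq1, Kcnq3, Kcne1, Kcnc2 and Kcns3, and the split at 100 was set after the values were seen.

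**Figure D2:**
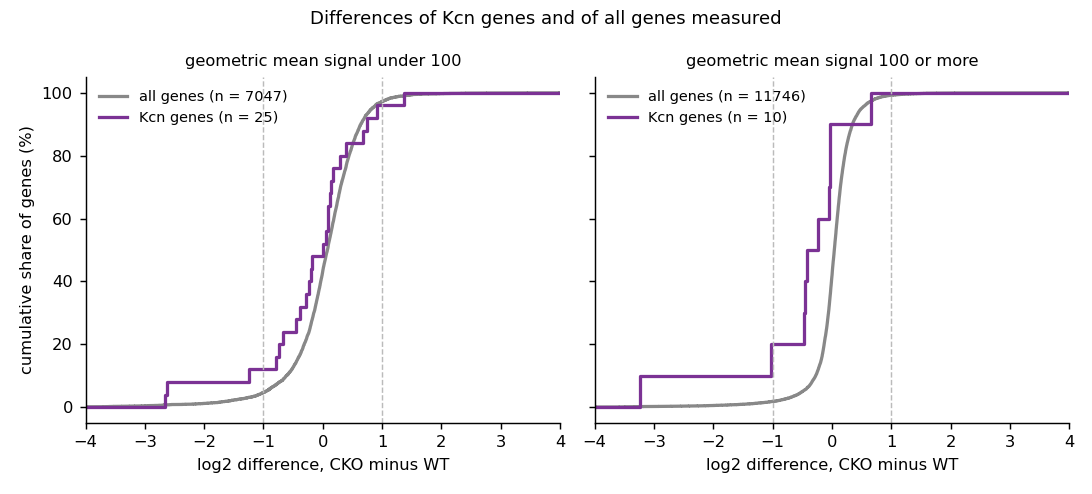
Cumulative share of genes (vertical axis, percent) against the log2 difference, CKO minus WT, for Kcn genes (purple) and all genes measured (grey), left for genes of geometric mean signal under 100 and right for the brighter ones; dashed lines mark 2-fold. On the right the purple line runs to the left of the grey one up to a single gene, Kcns3 at 0.66, and on the left the purple line meets the grey one above 0.

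The largest differences were in Kcnq3, Kcnk2 and Kcnh5. Each rests on 1 probe, and for Kcnk2 and Kcnh5 the first 30 of its 60 bases are shown to identify the stretch of transcript that was measured:
Kcnk2: tttttaaaggcagaagaagacatgagcaca
Kcnh5: ggcctgccaaagacaattattcaaaacata
Kcnq3 encodes a subunit of the M-type channel, a slow voltage-gated current best known in neurons. Its probe read 300.4% in WT and 31.9% in CKO, a difference of −3.24 ± 0.21, or 9.42-fold lower. Kcnh5, an ether-a-go-go voltage-gated channel (mm9 chr12:75998271-75998330, minus strand, position 3934 of the transcript as the files number it), read 85.5% and 13.9%, a difference of −2.62 ± 0.23, or 6.16-fold lower. Both were well above background on both arrays. Kcnk2, the mechanically gated background channel TREK-1 (chr1:191032758-191032817, minus strand, position 2490), read 29.4% in WT and 1.62% in CKO, where it was not well above background, so that it was at least 6.35-fold lower. With normexp these came to −2.58, −1.48 and a bound of −1.03. Over the 9 alternative settings all 3 genes were 2-fold lower wherever they had a value, which for Kcnk2 was 8 settings, since the filter on both arrays leaves it out.

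Kcnc2, Kcnk5 and Kcne1 were lower by more than 1 probe, and the probes differed in size of the change. Their first 30 bases are shown with the position of the probe along the transcript, since the values below are ordered by it:
Kcnc2 at 1574: cccctctggcaagctcgcctacattttgca
Kcnc2 at 5533: gatatccaaacactgattgcctcattttct
Kcnc2 at 5613: tctacatagaaatctaaccatttcttggtc
Kcnk5 at 1159: tacagatggctggaagtacagcatccaagg
Kcnk5 at 2900: aatattttttaatgaactgttatttttata
Kcne1 at 596: acactctacaggtgacaagcggatctttct
Kcne1 at 3090: tataaaacaataataaagaagatttaaata
Kcnc2 encodes a fast voltage-gated channel of the Kv3 group. Its probe at position 1574 (chr10:111893475-111893534, plus strand) read 15.3% in WT and 9.02% in CKO, a difference of −0.76 ± 0.28. Its probes at 5533 and 5613 read 145% and 182% in WT and 65.6% and 89.9% in CKO, with differences of −1.15 ± 0.21 and −1.02 ± 0.20. All 3 probes of Kcnc2 were lower by more than their spot error, and 2 of them by 2-fold. Kcnk5, the alkali-activated background channel TASK-2 of kidney tubules, gave −0.48 ± 0.26 at position 1159 (14.2% and 10.2%) and −1.24 ± 0.22 at position 2900 (48.1% and 20.4%; chr14:20959684-20959743, minus strand). By the first probe Kcnk5 was 1.39-fold lower and by the second 2.36-fold, so its 2-fold call rests on the second. With the mean over a gene's probes Kcnk5 came to −0.86 and Kcnc2 to −0.98, and with normexp to −0.68 and −0.90, short of 2-fold. Kcne1, the small subunit that slows the opening of the Kcnq1 channel, gave −0.43 ± 0.20 at position 596 (1569% and 1168%) and −0.83 ± 0.21 at position 3090 (39.3% and 22.1%).

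The difference between genotypes varied with position along the transcript over the whole array. In 4615 transcripts with more than 1 probe well above background on both arrays, the last probe gave the lower difference in 61.2%, with a median gap of −0.06. In the 2645 of them with first and last probe at least 1000 bases apart, it did so in 70.9%, with a median gap of −0.14. For Kcnc2, Kcne1 and Kcnk5 the gap between the last and the first probe was −0.26, −0.41 and −0.76, and for Kcnj16 and the noncoding Kcnq1ot1 it was 0.01 and 0.04. A gap of −0.3 or lower was found in 28.5% of those 2645 transcripts and in 20.1% of all 4615. The part of this trend in the differences of single-probe genes such as Kcnq3, Kcnk2 and Kcnh5 was not tested.

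**Figure D3:**
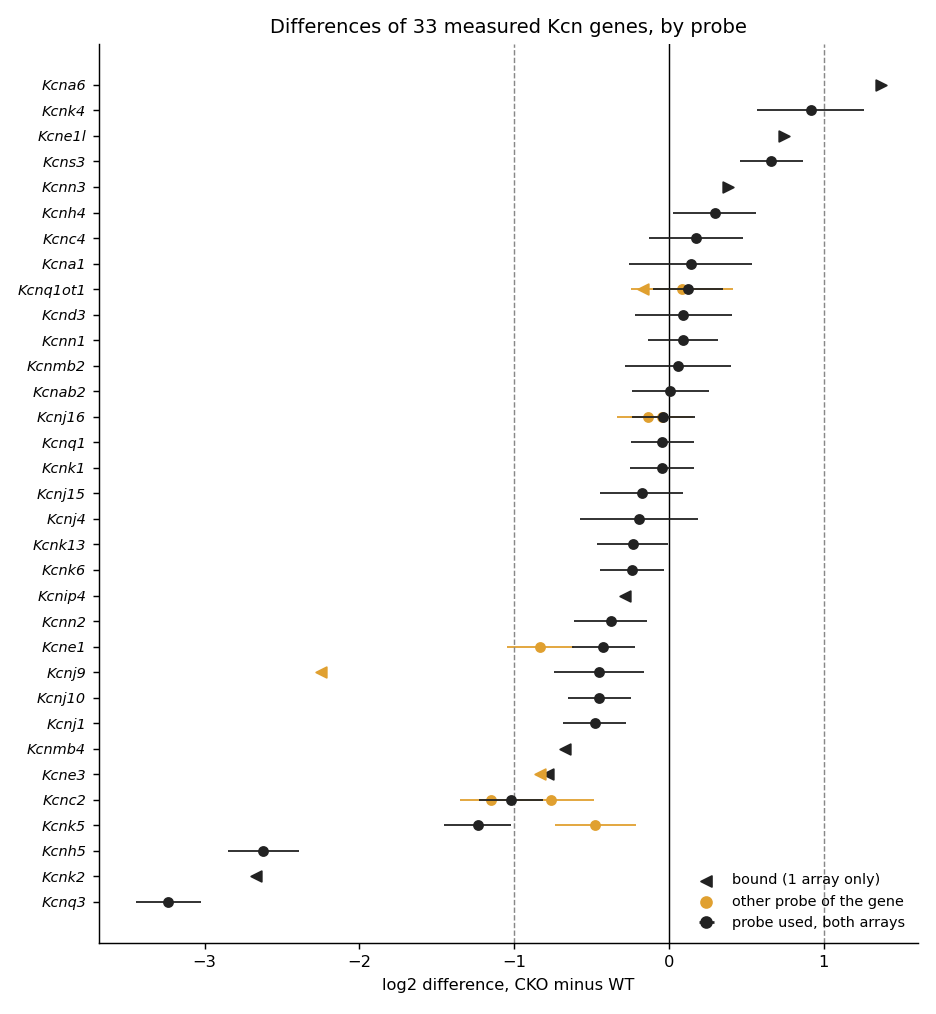
Log2 difference, CKO minus WT, of 33 Kcn genes in order of size, by probe. Black points are the probe used and orange ones other probes of the gene, bars are spot errors, triangles are bounds for probes well above background on 1 array only, and dashed lines mark 2-fold. Kcnq3, Kcnk2 and Kcnh5 stand apart below −2.5, and Kcna6 is the single gene beyond 1.

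Of the 6 Kcnj genes measured, all lay below 0, of which Kcnj15 and Kcnj4 turned to 0.09 and 0.16 with normexp, and none reached 1.5-fold by the probe used. Kcnj1 encodes ROMK, the apical channel of potassium secretion. Its only probe (chr9:32206612-32206671, plus strand, position 2902) begins as follows, given as the probe of the main secretory channel:
Kcnj1: gcaggagaatttacttcggaggaaggttct
It read 12648% in WT and 9074% in CKO, a difference of −0.48 ± 0.20, or 71.7% of the WT level. Kcnj10, a basolateral channel that pairs with Kcnj16, was at 73.1% of the WT level, with 1929% and 1411% and a difference of −0.45 ± 0.20. Kcnj16, its partner, read 2340% and 2281%, a difference of −0.04 ± 0.20, with −0.05 and −0.13 at its other probes. Kcnj1 and Kcnj10 thus differed by over 2 spot errors, and Kcnj16 by less than 1. Set on the spike-in transcripts, Kcnj1 came to −1.03, Kcnj10 to −0.997 and Kcnj16 to −0.58, against −0.50 for the median of all genes.

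The other Kcnj genes were dim. Kcnj9, a subunit of G-protein-gated channels, gave −0.45 ± 0.29 by the probe used (10.3% and 7.57%), while its other probe read 21.96% in WT and 3.14% in CKO, where it was not well above background, and so was at least 4.75-fold lower. With their mean the gene came to −1.35. The probe used carries an accession that did not match RefSeq and the other one matched Kcnj9, so the value of Kcnj9 depends on the probe. Kcnj15 read 12.1% and 10.69% (−0.175 ± 0.27), by a probe whose accession did not match RefSeq. Its other probe, which matched Kcnj15, was not well above background on either array, at 2.60 scanner units in WT and 3.41 in CKO. Kcnj4 read 6.73% and 5.88% (−0.20 ± 0.38), by a probe of which the files place 25 bases in the genome. Neither differed by more than its spot error.

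Of the 6 Kcnk genes measured, 2 were at least 2-fold lower, Kcnk2 and Kcnk5 above, and 1 was at least 1.5-fold higher. That gene, Kcnk4, encodes the mechanically gated background channel TRAAK, a relative of TREK-1, and read 5.42% in WT and 10.2% in CKO, a difference of 0.92 ± 0.34. Kcnk1, the weakly rectifying TWIK-1, read 512% and 496% (−0.04 ± 0.20). Its relative Kcnk6, TWIK-2, read 53.6% and 45.4% (−0.24 ± 0.21), and Kcnk13, the halothane-inhibited THIK-1, read 25.7% and 21.9% (−0.23 ± 0.23, or 0.05 with normexp). TREK-1 and TRAAK thus lay on opposite sides of 0, both by single dim probes, and Kcnk1 differed by less than its spot error.

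The pore gene Kcnma1 was at background on both arrays, as given above, and of its accessory subunits Kcnmb2 and Kcnmb4 were measured. Kcnmb4, the beta subunit that slows the gating of the channel, read 7.36% in WT and 1.26% in CKO, where it was not well above background, and so was at least 1.59-fold lower. Kcnmb2, the subunit that inactivates it, read 6.37% and 6.63%, a difference of 0.06 ± 0.34. Lrrc26, a gamma subunit that lets the channel open at more negative voltage, was higher, at 50.4% and 123%, a difference of 1.28 ± 0.21.

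Kcnq1 and Kcne1 together form the slow delayed rectifier channel. Kcnq1, on chr7:150612740-150612799 at position 2821, read 3236% in WT and 3143% in CKO, a difference of −0.04 ± 0.20. Kcnq1 thus did not differ by more than its spot error, whereas Kcne1, as given above, was at 74.5% and 56.2% of the WT level by its probes. Kcne3, the subunit that holds Kcnq1 open in secretory epithelia, was detected in WT only by both of its probes, at 7.94% and 8.22%, against 4.30% and 1.82% in CKO, and was at least 1.72-fold and 1.78-fold lower. With normexp, Kcne3 and Kcnmb4 came to −0.019 and −0.15. Its offset draws differences at such dim signals toward 0, so this setting cannot decide whether their 1.5-fold calls hold. Kcne1l was detected in CKO only, at 6.42% against 2.20%, and was at least 1.68-fold higher. Kcnq1ot1, a noncoding RNA transcribed antisense within Kcnq1, is no channel subunit but carries the symbol. By the probe used it read 25.4% and 27.7%, a difference of 0.13 ± 0.23, and its probe at position 38829 gave 0.08. Its probe at position 57278 was detected in WT only, at 5.19% against 4.34%, and was at least 1.12-fold lower. Its remaining probes were not well above background on either array, and with the mean over its probes it came to 0.01. The median of the Kcn genes without Kcnq1ot1 was −0.19.

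**Figure D4:**
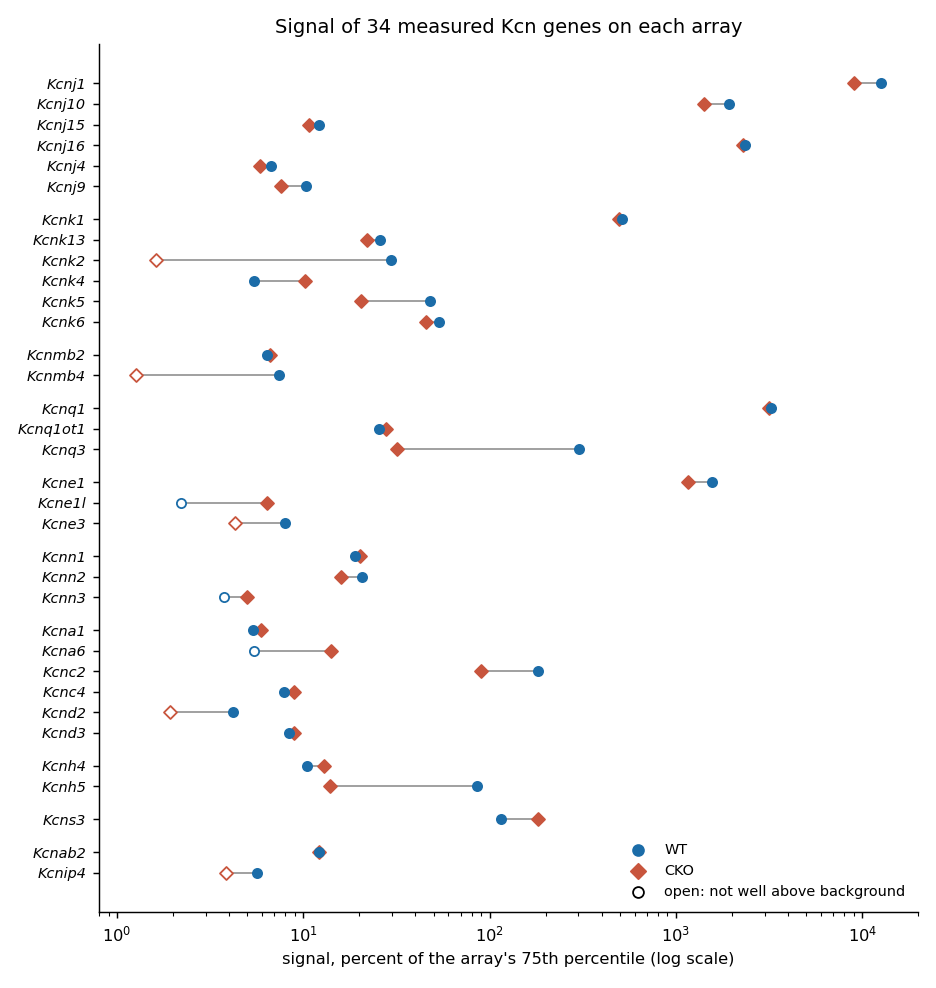
Signal of 34 measured Kcn genes on the WT (blue circle) and CKO (red diamond) arrays, in percent of each array's 75th percentile on a log axis, by the probe used, with a grey line joining the 2 arrays. Open symbols were not well above background; levels are to be compared within a row, not between genes. Long lines to the left mark Kcnq3, Kcnk2 and Kcnh5, and Kcnj16, Kcnk1 and Kcnq1 have nearly overlapping symbols.

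Among the remaining voltage-gated genes, Kcna6, a Kv1 subunit, was the single gene at least 2-fold higher. It read 13.99% in CKO and 5.41% in WT, where it was not well above background, and was at least 2.59-fold higher. Kcns3, an electrically silent subunit that modifies Kv2 channels, read 114% and 181%, a difference of 0.66 ± 0.20. Set on the spike-in transcripts these higher genes stayed above 0, with Kcns3 at 0.12, Kcnk4 at 0.37, Kcne1l at least 0.20 and Kcna6 at least 0.83. With normexp Kcna6 came to at least 0.66, short of 2-fold, and Kcnk4 to 0.41, Kcne1l to at least 0.38 and Kcns3 to 0.57, short of 1.5-fold.

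The other measured genes named here did not reach 1.5-fold by a difference or a bound. A bound sets no upper limit, so those detected in 1 genotype only may differ by more. Kcna1 was at 0.14 ± 0.40, Kcnc4 at 0.17 ± 0.30, Kcnd3 at 0.09 ± 0.31 and Kcnh4 at 0.30 ± 0.27. Kcnd2 was detected in WT only by both probes, at 4.18% and 5.23% against 1.91% and 0.948% in CKO, too close to the detection limit for a bound by the probe used. Of the small-conductance calcium-activated channels, Kcnn1 was at 0.09 ± 0.23 and Kcnn2 at −0.38 ± 0.24, and Kcnn3 was detected in CKO only, at 5.004% against 3.77%, at least 1.31-fold higher. The probe of Kcnn2 was printed 10 times, of which 9 spots were used on each array. The standard deviation over its spots was 0.08 in WT and 0.11 in CKO on the log2 scale, below its spot error. The beta subunit Kcnab2 was at 0.01 ± 0.25, and Kcnip4, a calcium-binding partner of Kv4 channels, was detected in WT only, at 5.63% against 3.86%, and so was at least 1.22-fold lower.

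Genes whose products act with these channels came from 2 lists. Of 22 channel partners 16 were measured. Against 10825 of all 18793 genes above 0, with a median of 0.05, 11 of the partners lay above 0, with a median of 0.10. None was 1.5-fold lower and 3 were at least 1.5-fold higher, beside the 6.42% and 6.85% of all genes given above: Lrrc26 above, Dpp10, which speeds Kv4 channels, at 1.02 ± 0.37, and Amigo1, a partner of Kv2 channels, at 0.67 ± 0.22. Of 34 regulators of renal potassium secretion 33 were measured, with a median of −0.03, and 4 were at least 1.5-fold lower and 2 higher, beside the same shares. The lower ones were the proton-potassium pump genes Atp4a at −1.13 ± 0.20 and Atp12a at −0.93 ± 0.27, the aldosterone-induced kinase Sgk1 at −0.98 ± 0.20, and Hsd11b2, which inactivates glucocorticoids and is also among the principal cell markers, at −0.61 ± 0.20. The higher ones were the cotransporter gene Slc12a2 at 1.89 ± 0.21 and the sodium pump subunit Atp1b1 at 0.64 ± 0.20.

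With the spike-in transcripts set equal, which lowers every difference by the same amount, the partners' median was −0.45 with 3 above 0, and that of the regulators −0.58 with 2 above 0. The median of all genes was then −0.50.

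Markers of tubule cells and of other cell types differed between the genotypes. The 8 principal cell markers had a median of −0.34, with 7 lower, and the 8 intercalated cell markers one of 0.73, with 7 higher. Their summed signal in CKO was 85.1% and 123% of that in WT. Without Aqp3 the principal cell sum was 65035% in WT and 58722% in CKO. Without Slc26a4 the intercalated cell sum was 29110% and 32514%, of which Rhcg, the lower gene, made 20839% and 17994%. Markers of the thick ascending limb, a segment that also expresses Kcnj1, had a median of 0.59 over 5 genes. On the spike-in scale the intercalated cell and thick ascending limb medians were 0.18 and 0.05. The distal convoluted tubule markers had a median of −0.54 over 4 genes. Macrophage markers were lower in 8 of 8 genes, with a summed signal of 8948% in WT and 4275% in CKO. Endothelial markers were lower in 8 of 8 (169% and 91.9%), podocyte markers in 5 of 5 (199.9% and 108%), and those of fibroblasts, pericytes and smooth muscle cells in 6 of 7 (2710% and 2282%, or 1694% and 1693% without Tagln). Most of the sum without Tagln was Acta2, at 1577% and 1628%, whose other probes ranged from −1.16 to 0.59. The rest were Pdgfrb at −1.47, Cnn1 at −0.94, Col1a1 at −0.90, Col3a1 at −0.59 and Myh11 at −0.06. Proximal tubule markers were lower in 5 of 7 (813% and 641%, or 517% and 542% without Lrp2). Lymphocyte markers were lower in 2 of 4 with a difference, and the 5 measured summed to 84.3% and 41.2%, or to 37.4% and 37.0% without Cd8a, which was detected in WT only by the probe used. Of the neuron and glia markers Snap25, Syt1 and Gfap were among those not well above background on either array, and the 4 measured summed to 106% and 109%. In RNA of purified cells, fewer cells of a type and less RNA per cell cannot be told apart, and the part of these markers in the differences of the channel genes was not tested.

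**Figure D5:**
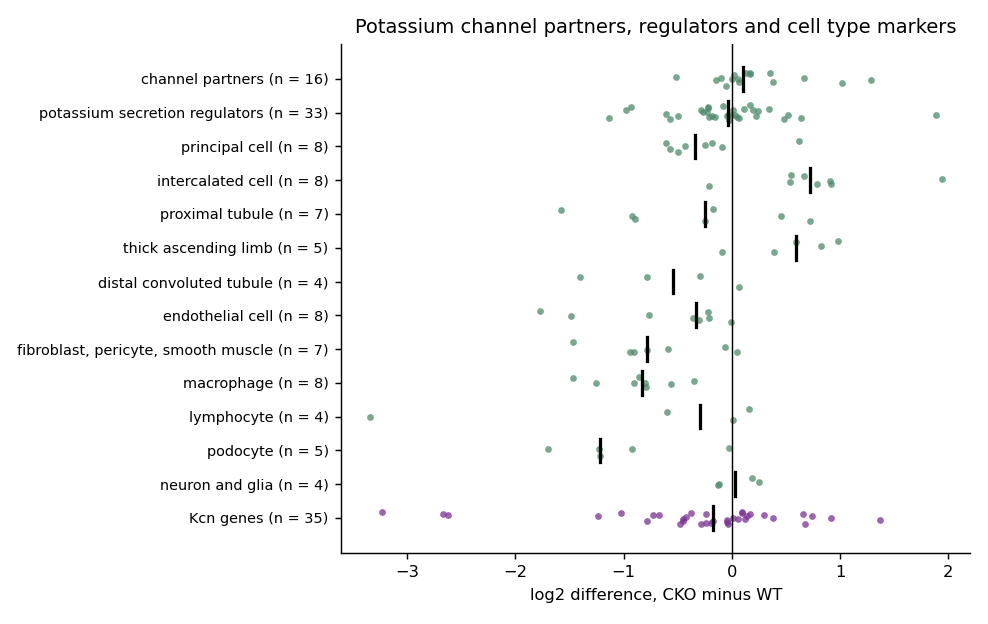
Log2 difference, CKO minus WT, of single genes (points) in the lists of channel partners, secretion regulators and cell type markers and in the Kcn genes (purple), bounds included; black bars are medians and points are spread vertically for sight. Intercalated cell and thick ascending limb markers lie mostly above 0 (6 of 8 and 3 of 5 on the spike-in scale), macrophage, endothelial and podocyte markers below it, and the Kcn genes reach furthest below 0 apart from 1 lymphocyte marker.

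Gata2 binds the GATA motif, so the 250 bases upstream of the transcription starts in RefSeq (GRCm38.p6) were searched for 4 forms of it on both strands: AGATAA and also AGATAG, then TGATAA and also TGATAG. Starts were found for 28 of the 36 measured genes. A match stood in 26.5% of all 32851 windows of this length, and in 25.6% of the 43 windows of measured Kcn genes. A match stood in at least 1 window of 2 of 6 genes that were at least 1.5-fold lower, 1 of 4 that were higher and 7 of 17 that did not reach 1.5-fold, against 29.7% of all genes. Genes differ in their number of windows. By window the matches were in 2 of 13, 1 of 5 and 8 of 24. The windows of Kcnj1, Kcnk2 and Kcnk4, a secretory channel slightly lower and the relatives that lay on opposite sides of 0, are shown with the match in capitals:
Kcnj1 (chr9:32393735-32393984, plus strand): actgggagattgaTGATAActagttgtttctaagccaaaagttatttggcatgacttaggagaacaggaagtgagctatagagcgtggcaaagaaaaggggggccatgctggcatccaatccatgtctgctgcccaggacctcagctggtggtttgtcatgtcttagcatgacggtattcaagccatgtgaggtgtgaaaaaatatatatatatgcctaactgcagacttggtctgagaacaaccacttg
Kcnk2 (chr1:189402274-189402523, minus strand): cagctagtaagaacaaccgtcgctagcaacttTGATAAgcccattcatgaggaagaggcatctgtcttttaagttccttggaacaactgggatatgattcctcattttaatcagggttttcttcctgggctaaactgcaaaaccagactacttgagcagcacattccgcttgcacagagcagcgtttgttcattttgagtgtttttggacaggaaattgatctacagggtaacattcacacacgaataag
Kcnk4 (chr19:6934516-6934765, minus strand): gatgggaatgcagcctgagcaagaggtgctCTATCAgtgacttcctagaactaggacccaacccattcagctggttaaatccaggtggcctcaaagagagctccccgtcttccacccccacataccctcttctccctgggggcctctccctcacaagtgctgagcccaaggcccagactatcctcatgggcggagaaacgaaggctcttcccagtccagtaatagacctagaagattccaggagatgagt
Each holds 1 match, which in Kcnj1 lies 237 to 232 bases before the start. A match is a description of the letters and no measured site.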

How the data were processed

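The deposited files hold spot intensity on a linear scale, with version 10.7.3.1 of Agilent's Feature Extraction software and its spatial and multiplicative detrending switched on, per the file headers; probe coordinates are on mm9. Labelling was with Cy3 from 50 ng of RNA, per the labels' protocols. Any scaling between arrays by the authors: not given in the sources used here. Both arrays shared 1 slide and 1 scan.

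Spots with outlier flags were left out (66 WT, 73 CKO), spots of a probe were averaged as log2 of the processed signal, and each array's 75th percentile was subtracted. Each gene was read from its brightest probe by mean log2 signal, among probes detected in either genotype; where detection held in 1 genotype only, the bound used the higher of the lowest signal well above background and the probe's own signal. Members kept the files' symbols, and 119 of 127 probes matched RefSeq (GRCm38.p6) by accession. Whether probes lie in coding or untranslated exons was not analysed here. Precision is limited by having so few arrays; probes of the same gene spread by 0.27 (root mean square SD, 5308 genes). Some members, 1 marker and 1 probe sequence are counted but not reported here by name. The other measured members are all named, with full values for those 1.5-fold apart or on 1 array only and for the Kcnj, Kcnk, Kcnm, Kcnq and Kcne genes; of the partner lists, those 1.5-fold apart. The members and lists were chosen with earlier results of these data known. The steps were tested on simulated data, with changes added only to genes over 100 scanner units in WT and the same detection calls on both arrays. Changes in dim genes and bounds were thus not covered. Software was limma 3.58.1 (R 4.3.3), and pandas 2.3.3, numpy 2.4.6 and matplotlib 3.10.9 (Python 3.11.15). Alternatives were normexp (offset 50), quantile, cyclic loess, median and spike-in scaling, looser and stricter detection filters, averaging a gene's probes, and keeping outlier spots.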

Additional observations from a re-analysis of the deposited data

How the results depend on the processing

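No paired analysis was possible because each genotype has 1 array. With normexp background correction 3 Kcn genes were 2-fold lower (1.11% of all genes) and 0 were 2-fold higher (0.354%). At 1.5-fold 6 Kcn genes were lower (2.63%) and 1 was higher (1.945%), and the Kcn median was 0.0171, against 0.07 for all genes. With 8 spike-in control transcripts set equal, 9 were 2-fold lower and 0 higher, 20 were 1.5-fold lower and 1 higher, beside 35.9% and 0.971% of all genes, and the median was −0.72, against −0.50 for all genes. With probes well above background on both arrays, 0 were 2-fold higher, 3 were 1.5-fold higher and 4 lower, and the median was −0.0445. With no filter on dim probes, which takes in all 87 genes, 11 were 2-fold lower and 6 higher (4.11% and 4.02% of all genes), 17 were 1.5-fold lower and 18 higher (8.24% and 9.93%), and the median was 0.17, against 0.15 for all genes. With the mean over a gene's probes the median was −0.12. By the call of a positive and significant signal in place of well above background, 63 genes were detected on the WT array, beside 77.0% of all genes. Under quantile normalization, cyclic loess, median scaling and with outlier spots kept, no count moved by over 1.5 times, and without Kcnq1ot1, an alternative chosen after seeing the data, the median was −0.19. None of the 13 genes 1.5-fold apart changed sign under the 9 alternatives where it had a value. Kcnq3 ranged from −3.78 to −2.58, Kcnh5 from −3.17 to −1.48 and Kcnc2 from −1.57 to −0.90. Part of these shifts is built into the settings. The normexp offset of 50 scanner units draws dim differences toward 0, and the spike-in setting lowers every difference by the same amount. Other causes were not tested. Dim signals limit the precision of many members: 25 of the 35 genes with a difference had a geometric mean under 100, where single spots of 1 probe gave a standard deviation of the difference of 0.25, against 0.08 above it.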

Other observations

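Among members detected in neither genotype, some probes had large measured differences, whose size is not reliable at such signals; those given here were chosen after their values were seen. Kcnj3, a subunit of G-protein-gated channels, read 2.55 scanner units in WT and 9.99 in CKO by its probe at position 1604, a measured difference of 2.30 ± 1.49. By its probe at position 3513 it read 4.62 and 8.48, a measured difference of 1.21 ± 0.89. Kcnk7 read 3.08 and 8.18 (1.74 ± 1.52) by a probe whose accession did not match RefSeq, and 7.41 and 6.91 (0.23 ± 0.70) by the one that did. In the other direction Kcnh2, a relative of Kcnh5, read 8.03 and 2.47 (−1.37 ± 1.52), and Kcnn4, the intermediate-conductance channel of blood cells and epithelia, read 9.55 and 3.30 (−1.20 ± 1.14).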
